A study of Mus musculus with 6 samples.

Results

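Fos, Fosb, Jun, Junb, Jund, Atf3, Ier2, Ier3, Dusp1 and Btg2, genes of the transcription factor AP-1 and of the immediate-early response, were followed in regulatory T cells (Tregs) sorted from mouse colon tumours. They were chosen by symbol, and all 10 were found among the 19494 named genes of the array, each with 1 row. Gene expression was measured on 6 arrays, 1 per sample, and values are log2 values from robust multi-array averaging (RMA). All mice were Foxp3-RFP x GPR15-GFP double reporters in which colorectal cancer had been induced with the carcinogen azoxymethane together with colitis from dextran sulfate sodium; their ages are not stated in the labels. In these mice Tregs carry a red reporter of Foxp3, the factor that defines them, and cells that use the Gpr15 locus, which encodes a receptor for homing to the colon, carry a green one. Lymphocytes of the tumorous colonic lamina propria were freed with collagenase IV, stained for CD4 and sorted straight into lysis buffer as red, GPR15-GFP+ or red, GPR15-GFP- cells. Each fraction had 3 samples, and in both they were numbered 1, 5 and 6 in their titles. The labels do not say what the numbers mark, nor whether animals were pooled, so p-values reflect the spread of these samples alone, which may be technical.

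AP-1 is a dimer of basic leucine zipper proteins: Jun proteins pair with each other or with Fos proteins, which cannot pair among themselves, and the dimer binds short DNA motifs. The genes of several subunits are immediate-early genes, transcribed within minutes of a stimulus such as T cell receptor engagement, growth factors or stress, with no need for new protein, and their RNAs decay fast. In T cells AP-1 acts with NFAT at cytokine genes. Enzymatic digestion of tissue and cell sorting are themselves known to induce these genes. All samples here were digested and no undigested sample was analysed here, so expression in the tissue and induction during digestion cannot be told apart.

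The bases just upstream of the transcript start are shown for the members whose values differed most, either by title number (Fos, Fosb, Junb, Dusp1) or by fraction (Jun, Btg2, Ier3). The windows are from RefSeq on GRCm38.p6, which held 9 of the 10 members (all but Ier2). Each sequence below is the 200 bases before the annotated start, 5′ to 3′ on the gene's strand. Capitals mark TGACG on either strand, the core of the cyclic AMP response element to which CREB and ATF proteins bind.
Fos, chr12:85473690-85473889, plus strand: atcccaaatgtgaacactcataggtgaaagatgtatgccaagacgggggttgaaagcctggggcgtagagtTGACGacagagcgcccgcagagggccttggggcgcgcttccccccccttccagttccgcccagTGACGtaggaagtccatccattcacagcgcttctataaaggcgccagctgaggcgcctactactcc
Fosb, chr7:19310046-19310245, minus strand: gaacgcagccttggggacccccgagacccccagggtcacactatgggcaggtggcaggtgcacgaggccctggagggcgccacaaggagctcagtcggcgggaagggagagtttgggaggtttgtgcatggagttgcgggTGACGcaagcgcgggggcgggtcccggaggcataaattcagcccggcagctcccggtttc
Junb, chr8:84978749-84978948, minus strand: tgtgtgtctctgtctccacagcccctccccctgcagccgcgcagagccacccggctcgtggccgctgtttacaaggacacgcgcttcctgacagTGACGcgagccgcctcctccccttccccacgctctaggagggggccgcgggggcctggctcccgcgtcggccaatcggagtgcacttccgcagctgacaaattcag
Dusp1, chr17:26508473-26508672, minus strand: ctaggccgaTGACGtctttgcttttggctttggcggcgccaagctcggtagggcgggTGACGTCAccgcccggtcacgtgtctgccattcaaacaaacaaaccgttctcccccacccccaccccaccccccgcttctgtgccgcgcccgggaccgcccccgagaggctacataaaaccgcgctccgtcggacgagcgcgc
Jun, chr4:95052223-95052422, minus strand: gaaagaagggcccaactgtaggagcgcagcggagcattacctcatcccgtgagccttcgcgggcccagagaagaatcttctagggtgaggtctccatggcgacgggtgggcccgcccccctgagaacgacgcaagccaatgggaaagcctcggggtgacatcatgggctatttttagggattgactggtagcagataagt
Btg2, chr1:134079156-134079355, minus strand: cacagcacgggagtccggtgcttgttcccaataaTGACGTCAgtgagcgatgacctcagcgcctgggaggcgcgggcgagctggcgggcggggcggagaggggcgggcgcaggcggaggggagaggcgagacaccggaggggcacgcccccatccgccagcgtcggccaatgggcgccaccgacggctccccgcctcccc
Ier3, chr17:35821513-35821712, plus strand: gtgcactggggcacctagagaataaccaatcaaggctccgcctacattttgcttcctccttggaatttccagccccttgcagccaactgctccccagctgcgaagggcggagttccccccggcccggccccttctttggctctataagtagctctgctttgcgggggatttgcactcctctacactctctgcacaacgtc

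In windows from 250 bases before to 50 after the start, TGACG on either strand was found in 6 of the 9 members (Fos, Fosb, Junb, Atf3, Dusp1 and Btg2) and in 20.8% of 32851 windows of all genes. The 4 members that differed most by title number all had it, as did Atf3 and Btg2, which were not among those 4. The full palindrome TGACGTCA, which contains TGACG on both strands, was found in Dusp1 and Btg2 and in 1.79% of all windows. TGANTCA, the motif of AP-1 itself and its own reverse complement, was found in 0 of 9 members and in 7.81% of all windows. The serum response element, searched by its consensus on both strands, was found in 0 of 9 and in 1.63%. A site outside these windows, or one that departs from the searched letters, would be missed, so 0 of 9 does not mean that a gene lacks the element. In Fos the first base of TGACG lay at -129 and at -66 from the start, in Fosb at -60, in Junb at -106 and in Dusp1 at -191 and at -143. The motifs were searched after the values were known, and a match is a description of the letters only.

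The 6 arrays had medians of 6.49 to 6.64 log2 units. The spread was narrower on both arrays numbered 1, with SDs of 1.63 in each fraction against 1.74 to 1.87 on the other 4. Gpr15 lay lower in the samples labelled GPR15-GFP+ (8.23, 7.86 and 8.28 in samples 1, 5 and 6) than in those labelled GPR15-GFP- (8.51, 9.12 and 8.70), against the labels, so every direction between fractions rests on the labels alone. Of Treg and T cell markers, Cd3e lay between 10.90 and 11.34 and Ctla4 between 10.45 and 11.73, while Il2ra, which encodes CD25, lay between 4.64 and 5.42, under the median of every array; whether that row detects its transcript well is not known here. For other cell types, means over the fixed marker lists are given per fraction. The 5 measured B and plasma cell markers had means of 5.46 to 5.74 in GPR15-GFP+ and 5.86 to 6.18 in GPR15-GFP- samples. The 7 macrophage, monocyte and granulocyte markers had means of 5.39 to 6.01 against 5.77 to 5.99, and the 8 epithelial markers 6.38 to 6.87 against 6.74 to 6.83. The 5 dendritic cell markers had means of 6.06 to 6.52 against 6.47 to 6.64, and all 5 had a difference (GPR15-GFP+ minus GPR15-GFP-) below 0, with a median of -0.28. Differences were also below 0 for all 7 macrophage, monocyte and granulocyte markers (median -0.16), 4 of 5 B and plasma cell markers and 6 of 8 epithelial markers. The 6 CD8 T and NK cell markers had means of 6.62 to 6.86 against 6.64 to 7.15, and the 6 stromal and endothelial markers 6.69 to 6.87 against 6.75 to 6.90. Of 47 markers measured in all lists, 0 passed between fractions (limma, adjusted over all genes), and 0 were higher and 5 lower at an unadjusted p under 0.05, of Treg, cytotoxic, plasma cell, macrophage and epithelial lists (Ikzf2, Gzma, Mzb1, Lyz2 and Vil1). With the title number as a block 1 was higher and 7 were lower. Of all genes, 2.79% were higher and 3.44% lower at that mark without the block, and 6.14% and 6.23% with it. The part of other cells in the members' values was not tested, and in bulk samples fewer cells of a type and less RNA per cell cannot be told apart.

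The first comparison asked whether Tregs with the GPR15 reporter differed from those without it in these genes. Btg2 had the largest difference, 0.72 ± 0.28 (SE) log2 units higher in samples labelled GPR15-GFP+, followed by Ier3, lower by 0.42 ± 0.18 (SE), Jun, higher by 0.31 ± 0.17 (SE), and Ier2, higher by 0.28 ± 0.16 (SE), with 3 samples a fraction. None of the 10 passed limma's test after Benjamini-Hochberg adjustment over all genes, where the smallest adjusted p among them was 0.773. Of all 19494 genes 0% passed in either direction (smallest adjusted p 0.540; 1214 had an unadjusted p under 0.05). With the title number as a block 0% passed as well. The smallest adjusted p from limma with the block was 0.0750 over all genes and 0.387 among the members. Differences between fractions below are therefore given as values that did not pass, with SEs from the fit without the block unless stated. The median difference of the 10 members was 0.11, against -0.06 over all genes, and by title number it was 0.12, 0.08 and -0.02 in pairs 1, 5 and 6. It was -0.06 without GPR15-GFP- replicate 1, -0.09 without GPR15-GFP+ replicate 5, 0.20 without GPR15-GFP- replicate 5 and 0.28 without GPR15-GFP+ replicate 1. Among genes within 0.5 log2 units of a member's mean level, the median difference was 0.11 for Fos and Btg2 and 0.10 for Jun and Jund. It was 0.07 for Ier2 and Junb, 0.06 for Fosb, 0.01 for Atf3, -0.01 for Dusp1 and -0.13 for Ier3. The members' median of 0.11 is therefore not read as particular to them.

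**Figure D1:**
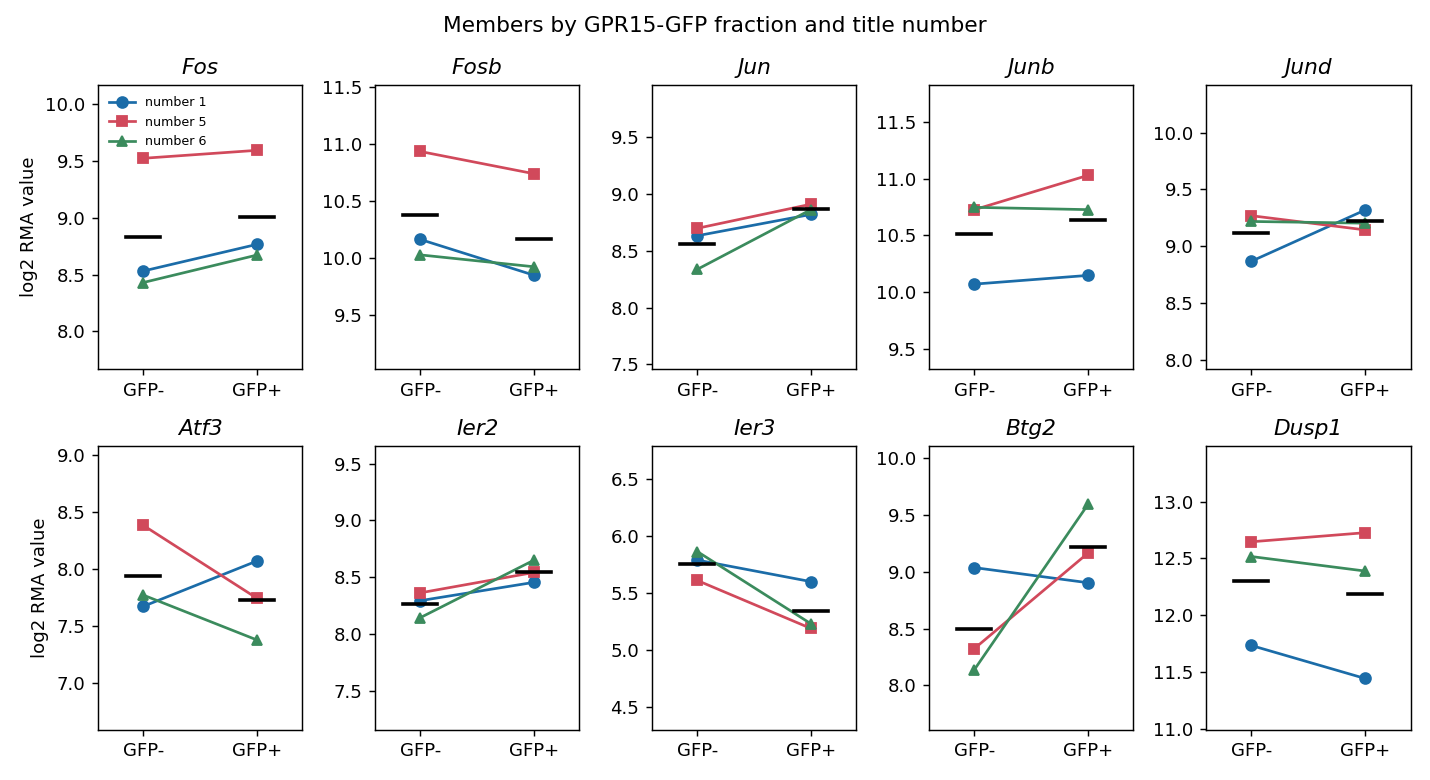
Log2 RMA value of each member (vertical axis, of equal height in log2 units in every panel) in GPR15-GFP- and GPR15-GFP+ samples; lines join samples of equal title number and black bars are the mean of 3 samples. Fos and Fosb lie highest in both samples numbered 5, Junb and Dusp1 lowest in both samples numbered 1, and Jun, Ier2 and Ier3 are parted by fraction.

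Among the AP-1 subunits, Fos, the founding Fos protein gene, lay at 8.53, 9.52 and 8.43 in GPR15-GFP- samples 1, 5 and 6 and at 8.77, 9.59 and 8.67 in the GPR15-GFP+ samples of the same numbers. Each GPR15-GFP+ sample was above its partner, by 0.23, 0.07 and 0.24, yet the fractions overlapped, since both samples numbered 5 were high. The means were 9.01 ± 0.51 (SD, n = 3) and 8.83 ± 0.60 (SD, n = 3), a difference of 0.18 ± 0.36 (SE). With the title number as a block the SE of that difference was 0.15. Fosb, its close relative, lay at 10.16, 10.94 and 10.03 in GPR15-GFP- and at 9.85, 10.74 and 9.92 in GPR15-GFP+ samples. Here each GPR15-GFP+ sample was below its partner, by 0.31, 0.20 and 0.10, again with overlap, and the difference was -0.21 ± 0.32 (SE), or ± 0.15 (SE) with the block.

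Jun, which encodes the Jun protein that pairs with Fos, lay at 8.63, 8.70 and 8.34 in GPR15-GFP- and at 8.82, 8.91 and 8.86 in GPR15-GFP+ samples. The fractions did not overlap, and the difference was 0.19, 0.21 and 0.53 in the pairs. Junb, a Jun protein with weaker activation of many targets, lay at 10.07, 10.73 and 10.75 in GPR15-GFP- and at 10.15, 11.03 and 10.73 in GPR15-GFP+ samples. Its fractions overlapped almost fully (difference 0.12 ± 0.28, SE, or ± 0.16, SE, with the title number as a block), with both samples numbered 1 low. Jund, the most constitutive of the Jun genes, lay at 8.87, 9.27 and 9.22 in GPR15-GFP- and at 9.32, 9.14 and 9.20 in GPR15-GFP+ samples. Its difference of 0.10 ± 0.18 (SE) combined 0.45 in pair 1 with -0.12 and -0.02 in pairs 5 and 6, and it was -0.07 without both arrays numbered 1. Atf3, a stress-induced partner that often represses, lay at 7.67, 8.38 and 7.77 in GPR15-GFP- and at 8.07, 7.74 and 7.37 in GPR15-GFP+ samples. Pair 1 went up by 0.40 while pairs 5 and 6 went down by 0.64 and 0.40, so the mean difference was -0.21 ± 0.26 (SE). It was -0.52 without both arrays numbered 1.

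Of the members outside AP-1, Ier2, a nuclear immediate-early gene product, lay at 8.29, 8.36 and 8.14 in GPR15-GFP- and at 8.46, 8.54 and 8.65 in GPR15-GFP+ samples. All 3 GPR15-GFP+ samples were above all GPR15-GFP- samples, by 0.16, 0.18 and 0.51 within pairs. Ier3, a stress-induced regulator of cell survival, lay at 5.79, 5.61 and 5.87 in GPR15-GFP- and at 5.60, 5.19 and 5.23 in GPR15-GFP+ samples. All 3 GPR15-GFP+ samples were below all GPR15-GFP- samples, and the pairs differed by -0.19, -0.42 and -0.64. The row was dim, with every value under the median of its array. Genes within 0.5 log2 units of the mean level of Ier3 had a median difference of -0.13. With the intensity trend removed within pairs, Ier3 differed by -0.29 (limma, unadjusted p = 0.102). Btg2, an antiproliferative gene whose product promotes shortening of mRNA tails, lay at 9.04, 8.32 and 8.14 in GPR15-GFP- and at 8.90, 9.16 and 9.59 in GPR15-GFP+ samples. In pairs 5 and 6 it was higher by 0.84 and 1.45, and in pair 1 lower by 0.13, so the fractions overlapped through GPR15-GFP- sample 1. Dusp1, the phosphatase that switches off the MAP kinases p38 and JNK, lay at 11.73, 12.65 and 12.52 in GPR15-GFP- and at 11.44, 12.73 and 12.39 in GPR15-GFP+ samples. Its difference was -0.11 ± 0.37 (SE), or ± 0.16 (SE) with the title number as a block, with full overlap.

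Groups without overlap, above for Jun and Ier2, made up 2 of 10 members against 4.12% of all genes, and below for Ier3, 1 of 10 against 9.17%. Above in all 3 pairs were Fos, Jun and Ier2, 3 of 10 members against 13.4% of all genes, and below in all 3 were Fosb and Ier3, 2 of 10 against 23.6%. At an unadjusted p under 0.05, limma found Btg2 higher, 1 of 10 against 2.79% of all genes, and no member lower against 3.44%. Btg2 no longer met that mark without GPR15-GFP- replicate 5 or 6, without GPR15-GFP+ replicate 5 or 6, or after renewed quantile normalization. Without both arrays numbered 1 it met the mark, at a difference of 1.15 with an adjusted p of 0.0897 from limma. With the title number as a block, Btg2 was 1 of 10 members against 6.14% of genes higher, and Ier3 was 1 of 10 against 6.23% lower, both from limma. When arrays were weighted by their estimated quality, Btg2 (1.20) and Ier3 (-0.53) had adjusted p of 0.0188 and 0.0343 from limma, together with 2174 genes in all. Those weights ran from 0.191 for GPR15-GFP+ replicate 1 to 6.56 for GPR15-GFP+ replicate 6, and their estimation stopped short of its convergence tolerance. Jun, Ier2, Ier3 and Btg2 kept their direction under every alternative run on them, though not their size. After renewed quantile normalization Jun and Ier2 each differed by 0.17 (limma, unadjusted p = 0.416 and 0.344).

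**Figure D2:**
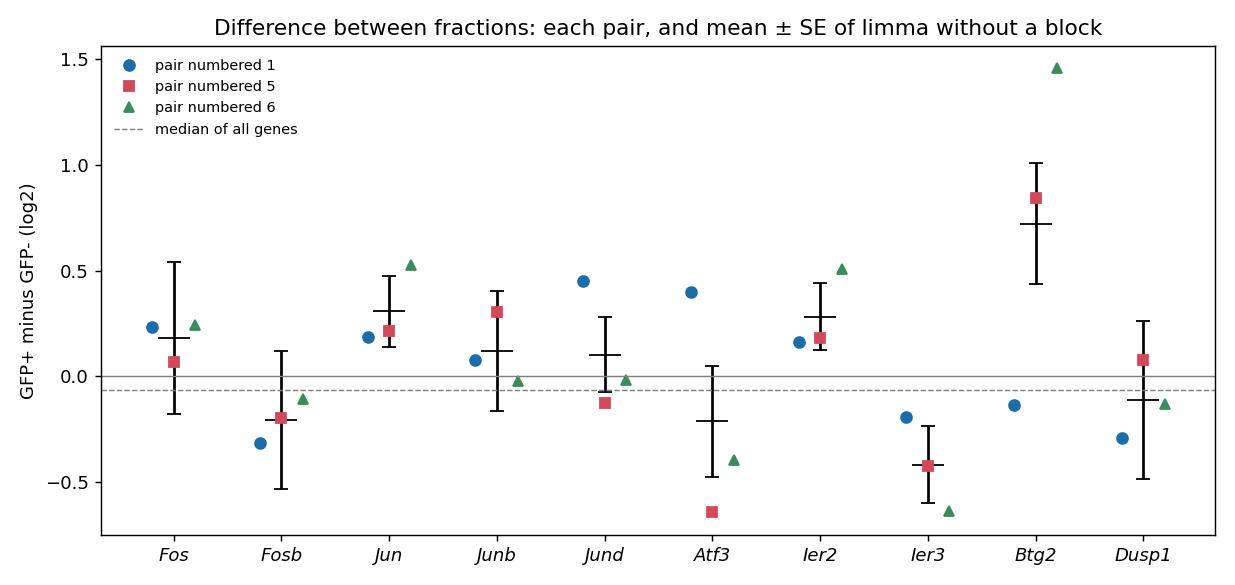
Difference between fractions (GPR15-GFP+ minus GPR15-GFP-, log2) for each member: coloured points are the 3 pairs of equal title number, black bars the mean ± SE of limma without a block, and the dashed line the median of all genes at -0.06. Jun, Ier2 and Fos lie above 0 and Fosb and Ier3 below 0 in all 3 pairs, while Btg2, Atf3, Jund, Junb and Dusp1 have pairs on both sides of 0.

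The second comparison took the title numbers, the other label by which these samples differ. Dusp1 rose by 1.10 ± 0.20 (SE) log2 units from the samples numbered 1 to those numbered 5, and Fos by 0.91 ± 0.19 (SE), 2 arrays against 2 with the fraction in the model (limma adjusted p = 0.0342 and 0.0449). These were 2 of 10 members, against 3.38% of all genes higher in that contrast and 0.646% lower. The 2 arrays of a number are 1 of each fraction, so p-values between numbers rest on the spread within numbers. If a number marks 1 source, each contrast sets 1 source against 1, and the spread between sources is not measured. Fosb (0.83 ± 0.19, SE; adjusted p = 0.0558) and Junb (0.77 ± 0.19, SE; adjusted p = 0.0714) lay in the same direction and did not pass limma's test. Fosb passed with arrays centred on their medians (adjusted p = 0.04997), without the 40% dimmest genes (0.0472) and with an intensity trend in eBayes (0.0389). It did not after renewed quantile normalization (0.166). Junb passed with the intensity trend in eBayes (adjusted p = 0.0492). It did not with centred arrays (0.0630), without the dimmest genes (0.0605) or after renewed quantile normalization (0.228), all from limma. With 1 array left out the difference lay between 0.75 and 0.92 for Fosb and between 0.63 and 0.91 for Junb. By limma's F test over the 3 numbers no member passed, against 1.82% of all genes, and the 4 smallest adjusted p were 0.0615 for Fos, 0.0627 for Dusp1, 0.0832 for Fosb and 0.133 for Junb. At an unadjusted p under 0.05, the F test found these 4 of 10 members, against 19.8% of all genes.

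The 4 genes differed in which number stood apart. Fos averaged 8.65, 9.56 and 8.55 in the samples numbered 1, 5 and 6, and Fosb averaged 10.00, 10.84 and 9.97. In the deposited values number 5 was thus high and 1 and 6 were alike, which changed with the scaling, as given below. From 5 to 6 Fos differed by -1.01 ± 0.19 (SE) and Fosb by -0.86 ± 0.19 (SE). Neither passed limma's test after adjustment (unadjusted p = 0.000885 and 0.00220, adjusted p = 1.00 for both). In this contrast 0.0103% of all genes were called lower. Junb averaged 10.11, 10.88 and 10.74 and Dusp1 11.59, 12.69 and 12.45, so there number 1 was low and 5 and 6 were close. From 1 to 6 Dusp1 differed by 0.86 ± 0.20 (SE) and Junb by 0.63 ± 0.19 (SE), and neither passed (limma adjusted p = 0.0742 and 0.143), against 1.91% of all genes called higher. Dusp1 passed there with an intensity trend in eBayes (limma adjusted p = 0.0306). It did not with centred arrays (0.0697), without the 40% dimmest genes (0.0599) or after renewed quantile normalization (0.150). With 1 array left out its difference lay between 0.73 and 1.00. Jun, Jund, Ier2, Ier3, Btg2 and Atf3 had differences between numbers of -0.49 to 0.19, of which none passed.

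Title number took 96.2% of the sum of squares over the 6 arrays for Dusp1, 95.4% for Fos, 93.2% for Junb and 92.8% for Fosb. A share above 90% was found for 4 of 10 members and 6.76% of all genes, whose mean share was 48.9%. The fraction took most for Ier2 (73.0%), Ier3 (65.4%), Jun (64.6%) and Btg2 (53.0%), against a mean of 23.2% over all genes, and for Jund most was left to neither (73.4%). Number has 2 degrees of freedom and fraction 1, so the shares are not on an equal footing.

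**Figure D3:**
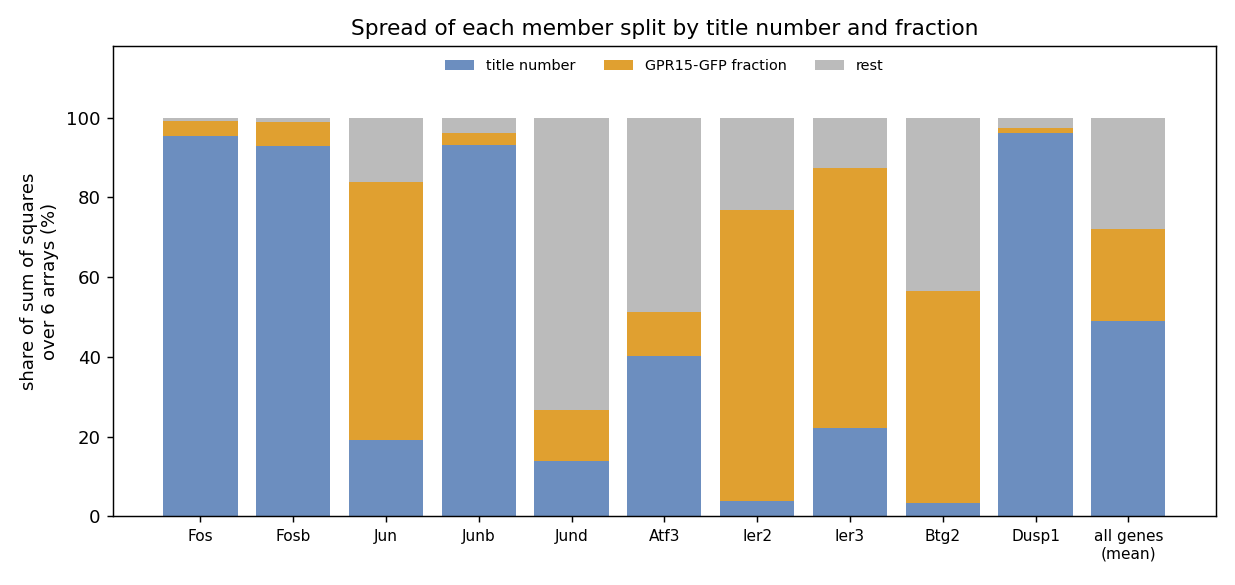
Share of each member's sum of squares over 6 arrays (vertical axis, percent) that goes with title number, with GPR15-GFP fraction and with neither; the last bar is the mean share over all 19494 genes. Title number takes over 90% for Fos, Fosb, Junb and Dusp1, and the fraction over 50% for Jun, Ier2, Ier3 and Btg2.

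Over the 6 arrays some members moved together. The correlation was 0.95 for Junb with Dusp1, 0.93 for Jun with Ier2, 0.89 for Fos with Fosb and -0.93 for Ier2 with Ier3. These are the 4 strongest of 45 pairs, taken as a description over 6 arrays that share title numbers and scaling. Among Jun, Ier2, Ier3 and Btg2, for which the fraction took most of the sum of squares, further correlations were high. They are not separate from that split, and no background of other gene pairs was computed. Jun with Ier3 gave -0.85 and Ier2 with Btg2 0.85. Jun with Btg2 gave 0.77 and Ier3 with Btg2 -0.73.

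Level on the array moved with title number as well. Among the 65 genes within 0.5 log2 units of the mean level of Dusp1, the median difference of number 5 from number 1 was 0.21, and among the 1748 genes that near to Fos it was 0.32. After the arrays were quantile normalized again, which gives all 6 the same spread, the differences of number 5 from number 1 were 0.94 for Dusp1, 0.57 for Fos, 0.50 for Fosb and 0.43 for Junb, and none passed limma's test (adjusted p = 0.0576, 0.148, 0.166 and 0.228). The same step left the difference of number 6 from 5 at -0.94 for Fos and -0.88 for Fosb. After that step the differences of number 6 from 1 were -0.37 for Fos, -0.38 for Fosb, 0.29 for Junb and 0.63 for Dusp1. None of these passed limma's test (adjusted p = 0.342, 0.291, 0.434 and 0.150). In that contrast, before the step, genes within 0.5 log2 units of Fos and Fosb in mean level had medians of 0.28 and 0.37. Without GPR15-GFP+ replicate 5 the adjusted p of the difference of number 5 from 1 was 0.286 for Dusp1 and 0.268 for Fos. Without GPR15-GFP+ replicate 1 it was 0.0814 and 0.0830, and without GPR15-GFP- replicate 5 it was 0.0738 and 0.162. For Fos it was also 0.0648 without either sample numbered 6, all from limma.

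Heat shock genes, which tissue dissociation is also known to induce, are given beside the members because all cells passed through collagenase. Of 9 measured, 2 passed as lower in number 5 than in number 1 (Hspa1b and Hspd1), against 0.646% of all genes, and 3 as lower in number 6 than in number 1 (the same 2 and Hspa1a), against 0.256%, a direction opposite to that of Dusp1 and Junb. The inducible HSP70 gene Hspa1b lay at 8.10 and 7.90 in the samples numbered 1 and between 6.89 and 6.97 in the other 4. It fell by 1.11 ± 0.19 (SE) from number 1 to 5 and by 1.04 ± 0.19 (SE) from 1 to 6 (limma adjusted p = 0.0310 and 0.0444). Its near-identical neighbour Hspa1a, whose RNA the array may not tell apart, lay at 10.40 and 10.18 against at most 9.46 in the other 4, and the mitochondrial chaperone Hspd1 at 8.45 and 8.71 against 7.13 to 7.96. From 1 to 6 they fell by 1.15 and 1.13 (limma adjusted p = 0.0444 and 0.0486). With arrays centred on their medians the adjusted p from 1 to 6 was 0.0539 for Hspa1a, 0.0538 for Hspa1b and 0.0613 for Hspd1, and from 1 to 5 it was 0.0568 for Hspd1, from limma. After renewed quantile normalization the differences from 1 to 6 were -1.46 for Hspa1a (limma adjusted p = 0.0357), -1.18 for Hspa1b (0.0513) and -1.35 for Hspd1 (0.0431), and from 1 to 5 Hspa1a passed as well, at -1.30 (0.0362). The other 6 heat shock genes, among them Hsp90aa1, Hsph1 and Dnajb1, did not pass in any contrast of numbers. Hspa1a, Hspa1b, Hsp90aa1 and Dnajb1 were named after their values were seen. The part of digestion in the members' values was not tested.

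**Figure D4:**
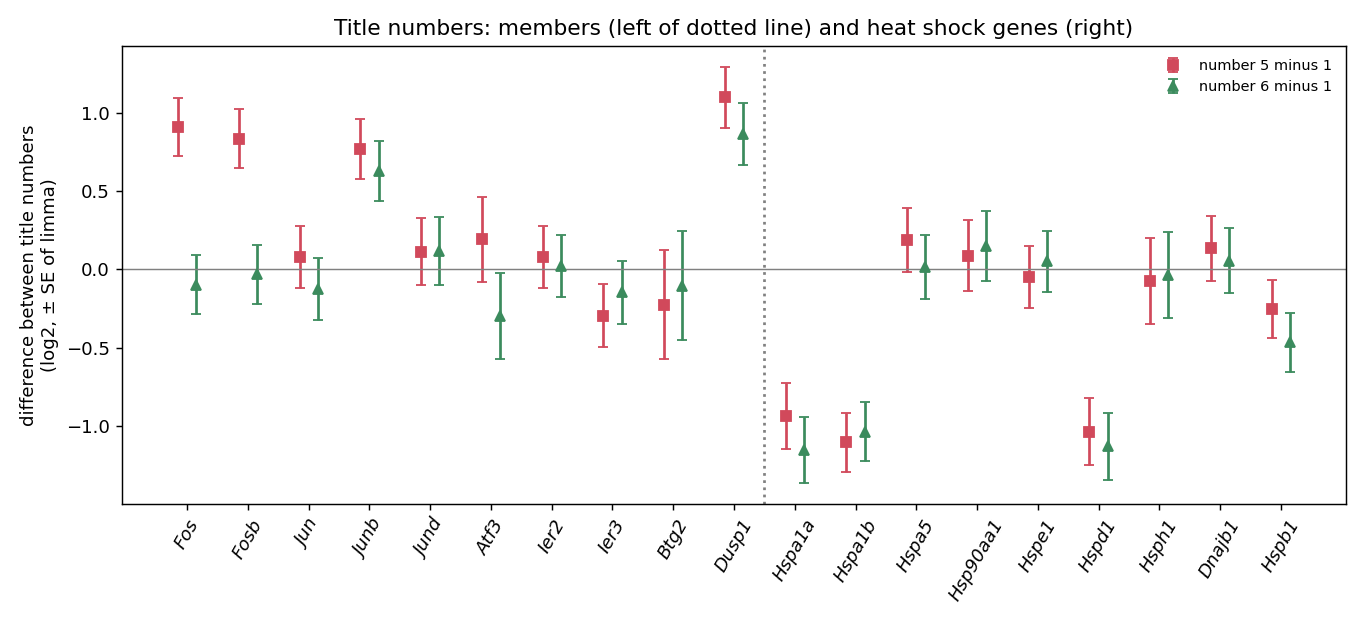
Difference of the samples numbered 5 and of those numbered 6 from those numbered 1 (vertical axis, log2, ± SE from limma with fraction in the model) for the 10 members and 9 heat shock genes. Dusp1 and Junb lie above 0 for both numbers, Fos and Fosb for number 5 with number 6 near 0, and Hspa1a, Hspa1b and Hspd1 below 0 for both.

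The rest of the pathway was read from fixed lists, in which no gene passed between fractions over all genes, with or without the block. At an unadjusted p under 0.05, limma found 3 higher (Egr2, Mapk9 and Plaur) and 2 lower (Arc and Csf2) among the 79 genes measured, and with the block 6 higher and 6 lower. These counts are near the shares of all genes at that mark, 2.79% higher and 3.44% lower without the block and 6.14% and 6.23% with it. Of 10 other AP-1 family genes 3 were above 0 and 7 below, with a median of -0.14. Batf2, an AP-1 factor without a transactivation domain, differed by -0.46 ± 0.22 (SE) and the Fos relative Fosl1 by -0.35 ± 0.21 (SE). Atf2, a CRE-binding partner of Jun, differed by 0.21 ± 0.16 (SE) without overlap between fractions, and the small Maf gene Maff by -0.33 ± 0.26 (SE). Of 30 other immediate-early and early response genes 10 were above 0 and 20 below, with a median of -0.16. Egr2, a zinc finger factor downstream of the T cell receptor, differed by 0.62 ± 0.26 (SE) and by 0.64, 0.62 and 0.59 in the pairs. Arc, an immediate-early gene best known in neurons, differed by -0.45 ± 0.16 (SE), the TGF-β-responsive factor Klf10 by -0.42 ± 0.23 (SE) and the NF-κB inhibitor Nfkbia by -0.27 ± 0.15 (SE).

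Upstream, 15 kinase and factor genes were measured, with 9 above 0, 6 below and a median of 0.08. Mapk9, which encodes the Jun kinase JNK2, lay at 6.32, 7.19 and 7.09 in GPR15-GFP- and at 7.66, 8.25 and 8.11 in GPR15-GFP+ samples. The fractions did not overlap and the pairs differed by 1.33, 1.06 and 1.03, yet the difference of 1.14 ± 0.28 (SE) did not pass (limma adjusted p = 0.773, and 0.176 with the block). Mapk14, which encodes p38α, differed by 0.64 ± 0.29 (SE), the serum response factor coactivator Mrtfb by 0.70 ± 0.32 (SE) and the JNK1 gene Mapk8 by 0.27 ± 0.27 (SE). Of the 7 other MAP kinase phosphatases measured, 3 were above 0 and 4 below (median -0.17). Dusp8, Dusp6, Dusp16 and Dusp10 differed by -0.17, -0.29, -0.29 and -0.30. Dusp10 rose from number 1 to 5 by 1.38 ± 0.24 (SE) and to 6 by 1.36 ± 0.24 (SE), with samples numbered 1 low as for Dusp1 (limma adjusted p = 0.0315 and 0.0413). Rhob, Myc and Tnfaip3 of the early response list rose from 1 to 5 by 1.29, 1.32 and 1.29. These 3 were named after their values were seen. Called higher from 1 to 5 were 1 of 7 phosphatases and 3 of 30 early response genes, against 3.38% of all genes. From 1 to 6 it was 1 of 7 and 1 of 30, against 1.91%. The values of these genes after renewed quantile normalization are not given here.

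Of 8 measured textbook targets of AP-1, 2 were above 0 and 6 below, with a median of -0.23. Plaur, the urokinase receptor, differed by 0.58 ± 0.18 (SE) and the gelatinase Mmp9 by 0.59 ± 0.34 (SE), the latter carried by sample 5 (8.71, against 7.27 to 7.56 in the other 5). Csf2, which encodes GM-CSF, differed by -0.67 ± 0.18 (SE) and the protease inhibitor Timp1 by -0.26 ± 0.18 (SE). Plaur lay above in all 3 pairs, by 0.94, 0.26 and 0.54, and Csf2 below in all 3. Of the heat shock genes, the small heat shock protein Hspb1 differed by -0.37 ± 0.20 (SE) between fractions, Hspd1 by 0.48 ± 0.41 (SE), Hsph1 by -0.23 ± 0.22 (SE) and the endoplasmic reticulum chaperone Hspa5 by -0.17 ± 0.17 (SE), with 2 of 9 above 0 and a median of -0.12.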

How the data were processed

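The values deposited by the authors are log2 values of probe sets after RMA, per the submitters' processing notes, which give no version; the genome build is not given in the sources used here. Per the labels, RNA was labelled with biotin by a kit for very small amounts of RNA, for 1-colour arrays, whose number limits the precision. Of 22142 rows, 19527 had 1 gene symbol in the platform annotation, 0 had several and 2615 had none and were left out. Identifiers were matched to RefSeq (GRCm38.p6) for 19527 rows, and 0 symbols changed. Of the genes, 33 had several rows, and the one with the highest mean was taken, which left 19494.

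Groups came from the titles. All genes entered 1 linear model without a block (R 4.3.3, limma 3.58.1, functions lmFit and eBayes), and p-values were adjusted by Benjamini-Hochberg over all genes, with a threshold of 0.05; SEs are limma's moderated ones. Title numbers were compared in a limma model with the fraction as a term. An exact permutation test of 3 against 3 samples cannot go below p = 0.1 and was not used. The equal numbers were taken to pair the samples. Deviations from the fraction means had correlations of 0.567 (number 1), 0.381 (number 5) and 0.319 (number 6), each above 0.1. Unequal numbers passed that mark too: GPR15-GFP- sample 6 with GPR15-GFP+ sample 5 gave 0.315, and GPR15-GFP- sample 5 with GPR15-GFP+ sample 6 gave 0.213. The mark therefore does not show that samples 5 and 6 are paired by number. The fits were tested on simulated data. Differences are GPR15-GFP+ minus GPR15-GFP-.

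The members and lists were chosen with earlier results of these data known. The rule named all members, Gpr15, Ptprc, Cd4, Cd3e, Ctla4, Il2ra and Ikzf2, and from each list up to 4 genes, those that passed and then those with the smallest p. Ptprc differed by 0.15, Cd4 by 0.14 and Ikzf2 by -0.52. The list of T cell and Treg markers had means of 10.22 to 10.59 over both fractions. Foxp3 was not analysed here. Alternatives were the replicate block, median centring, quantile normalization, removal of the intensity trend, leaving out the 40% dimmest genes, the mean of a gene's rows, array weights, an intensity trend in eBayes, leaving out each array, and leaving out both arrays numbered 1.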

Additional observations from a re-analysis of the deposited data

How the results depend on the processing

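No gene passed between fractions under any alternative except array weights, where 2174 did, Ier3 (-0.53) and Btg2 (1.20) among them. The 1214 genes with an unadjusted p under 0.05 became 2411 with the replicate block, 2087 with the intensity trend removed within pairs, 713 without the 40% dimmest genes (fewer genes tested), 6534 with array weights, 4101 without both arrays numbered 1 and between 668 and 4351 with 1 array left out. The highest came without GPR15-GFP+ replicate 1. Members at that mark numbered 2 with the replicate block (1 without), 0 after quantile normalization, 5 with array weights, 2 with an intensity trend in eBayes, 2 without both arrays numbered 1 and from 0 to 2 with 1 array left out. Among the members the block changed no other call between fractions.

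The members' median of 0.11 became 0.0047 after quantile normalization, 0.025 with the trend removed, -0.020 with array weights, and lay between -0.093 and 0.282 with 1 array left out. Turned in sign were Fos with array weights (-0.087), Jund after quantile normalization (-0.024) and without both arrays numbered 1 (-0.070), and the difference of number 6 from 1 for Fosb with centred arrays (0.019). With 1 array left out, Fos ranged from -0.11 to 0.53, Fosb from -0.49 to 0.076, Junb from -0.10 to 0.36, Jund from -0.022 to 0.18, Atf3 from -0.38 to 0.0087, Dusp1 from -0.40 to 0.26 and the difference of number 6 from 1 for Fosb from -0.113 to 0.052. The 354 genes called between numbers became 137 after quantile normalization and between 96 and 1988 with 1 array left out; there a number with 1 array is assumed to vary like the others. Ier3 fell under the filter on dim genes and has no value there. The causes were not tested.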
